A study of Bos taurus with 12 samples.

Results

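S100A8, S100A12, LTF, VNN1 and CD14 are 5 genes of neutrophils, monocytes and innate defence, and their levels were followed in the bovine endometrium, the inner lining of the uterus. They were found on the array by the names its scanner files give to the probes, and the brightest probe stood for each gene. They are 5 of 6458 genes with a symbol on the array, have 6 probes among 15208, and were all well above background on all 12 arrays. Cows of the Japanese-Black breed were biopsied when they had reached day 15 of their estrous cycle. The samples came from summer, early in September, or from autumn, in the middle of November, over a pair of consecutive years that the labels do not assign to samples. The 4 groups, with 3 arrays each, were the uterine horn next to the corpus luteum (CL side) in summer, the opposite horn (non-CL side) in summer, the CL side in autumn and the non-CL side in autumn. The corpus luteum is the ovarian body that secretes progesterone. No animal age or treatment is given in the labels, and the labels do not say whether replicates came from separate cows or whether the horns with the same number came from 1 cow. The spread behind each p-value is that between these samples, and it may be technical.

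Neutrophils are the first white blood cells to enter infected or injured tissue, and they carry antimicrobial proteins in granules and in the cytosol. S100A8 and S100A12 are small calcium-binding proteins that are abundant in the cytosol of neutrophils and monocytes. S100A8 pairs with S100A9 to form calprotectin, which withholds metal ions from microbes, and S100A12 (calgranulin C) binds zinc and copper and is a ligand of the receptor AGER. LTF, lactoferrin, binds iron and is stored in neutrophil secondary granules, but it is also secreted by glandular epithelium, including that of the uterus. VNN1, a pantetheinase anchored to the cell surface, splits pantetheine into pantothenic acid and cysteamine. CD14, a surface and soluble protein of monocytes and macrophages, hands bacterial lipopolysaccharide to the TLR4 receptor complex.

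Each value below is the signal of 1 probe of 60 bases, and the 5 distinct sequences are shown because they are what the array measured. They are given 5′ to 3′ as the scanner files hold them. The capitals mark the longest run that a probe of another gene on the array shares on either strand, which was 12 to 14 bases.
S100A8: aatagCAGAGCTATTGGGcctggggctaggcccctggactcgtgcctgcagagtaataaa
S100A12: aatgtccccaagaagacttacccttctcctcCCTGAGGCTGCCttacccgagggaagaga
LTF: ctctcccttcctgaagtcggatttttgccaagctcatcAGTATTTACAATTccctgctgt
VNN1: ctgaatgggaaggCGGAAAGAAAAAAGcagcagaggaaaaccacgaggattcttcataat
CD14: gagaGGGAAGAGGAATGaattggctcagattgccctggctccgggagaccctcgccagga
The S100A12, LTF and CD14 probes were named through their transcript accessions, the S100A8 probe through the gene ID in the name that the files give it, and the VNN1 probe through the symbol in the files. The probes had 43.3% to 60% G and C, and signals of different probes were not set against each other. LTF had a second probe of the same sequence at another place on the array. In the RefSeq gene table of ARS-UCD2.0, S100A8, S100A12 and S100A9 follow each other on chromosome 3 with no other gene between them. LTF is on chromosome 22, VNN1 on chromosome 9 and CD14 on chromosome 7.

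The genes were chosen by earlier results of these arrays. S100A8, S100A12 and LTF had stood out by their signals in the summer and autumn comparison on the CL side, and all 5 are treated as chosen by it. Their values in that comparison, and in those that contain it, are therefore descriptions with no test. All levels are log2 of the processed signal relative to the 75th percentile of its own array, so 0 is the level of that percentile. None of the 5 genes was saturated on any array. CL-side summer replicate 2 stood apart from the other arrays. Its 75th percentile was 2007 signal units, against 3516 to 4418 units on the other 11 arrays, and its median correlation with the other arrays was 0.928, against 0.979 to 0.986 for the others. All 6 summer arrays and replicate 1 of both autumn groups were on 1 slide, and the other 4 autumn arrays were on a second slide. The epithelial markers KRT8 and EPCAM were well above background on all 12 arrays.

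Of the 5 genes, 4 had their highest levels in the CL-side horn in summer. S100A8, S100A12, LTF and VNN1 each had the 3 CL-side summer arrays as the 3 highest of the 12, a pattern that 0.416% of 12272 probes with a value on all arrays showed. That share stands beside the count only, because the comparison that chose the genes used these CL-side summer arrays. CD14 varied less, and its CL-side summer samples overlapped with the non-CL-side summer and CL-side autumn samples but lay above all 3 non-CL-side autumn samples. In S100A8, S100A12, LTF and VNN1, ordered by mean, each of the other 3 groups overlapped with its neighbour, and in CD14 all 4 groups did.

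S100A8 had −0.39, 0.42 and −1.13 in CL-side summer samples and −2.68, −2.19 and −2.62 in non-CL-side summer samples. It had −2.88, −2.02 and −2.19 in CL-side autumn samples and −2.80, −3.87 and −2.17 in non-CL-side autumn samples. The 3 CL-side summer samples lay apart from the other 9, the highest of which was at −2.02. The means were −0.37 ± 0.78 in CL-side summer samples, −2.50 ± 0.27 in non-CL-side summer samples, −2.36 ± 0.46 in CL-side autumn samples and −2.95 ± 0.86 in non-CL-side autumn samples (SD, n = 3 each).

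S100A12, the neighbour of S100A8 on the chromosome, had 2.12, 2.36 and 1.30 in CL-side summer samples and −0.16, 0.75 and 0.31 in non-CL-side summer samples. It had 0.16, 1.27 and 0.34 in CL-side autumn samples and 0.06, −1.22 and 0.66 in non-CL-side autumn samples. The margin was narrow here, because the lowest CL-side summer sample, at 1.30, was just above CL-side autumn replicate 2, at 1.27. The means were 1.92 ± 0.56 in CL-side summer samples, 0.30 ± 0.46 in non-CL-side summer samples, 0.59 ± 0.60 in CL-side autumn samples and −0.17 ± 0.96 in non-CL-side autumn samples (SD, n = 3 each).

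LTF, the iron-binding protein, varied most between samples. It had 3.34, 7.73 and 3.23 in CL-side summer samples and −2.39, 2.73 and 1.63 in non-CL-side summer samples. It had 0.60, 2.48 and 1.17 in CL-side autumn samples and −0.55, 1.66 and 1.48 in non-CL-side autumn samples. The highest value was that of CL-side summer replicate 2, the array that stood apart, and without it the other CL-side summer samples were still above the highest of the remaining 9 at 2.73. The means were 4.77 ± 2.57 in CL-side summer samples, 0.66 ± 2.70 in non-CL-side summer samples, 1.42 ± 0.96 in CL-side autumn samples and 0.86 ± 1.23 in non-CL-side autumn samples (SD, n = 3 each).

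The second LTF probe gave 3.12, 7.70 and 3.01 in CL-side summer samples and −2.60, 2.45 and 1.39 in non-CL-side summer samples. It gave 0.51, 2.32 and 0.96 in CL-side autumn samples and −1.0, 1.46 and 1.14 in non-CL-side autumn samples. The brighter probe minus the other was 0.03 to 0.45 with a median of 0.21 in size, against a median of 0.10 over 71 pairs of kept probes whose sequence occurs exactly 2 times on the array. The order of the 3 CL-side summer samples was the same on both.

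VNN1, the pantetheinase, had 0.55, 1.76 and −1.15 in CL-side summer samples and −1.91, −2.17 and −2.03 in non-CL-side summer samples. It had −2.08, −1.82 and −1.98 in CL-side autumn samples and −2.01, −3.39 and −2.67 in non-CL-side autumn samples. The samples of the non-CL side in summer and of the CL side in autumn lay close together between −2.17 and −1.82, and the CL-side summer samples spread widely above them. The means were 0.39 ± 1.46 in CL-side summer samples, −2.04 ± 0.13 in non-CL-side summer samples, −1.96 ± 0.13 in CL-side autumn samples and −2.69 ± 0.69 in non-CL-side autumn samples (SD, n = 3 each).

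CD14, the lipopolysaccharide co-receptor, had −2.32, −2.15 and −2.68 in CL-side summer samples and −2.37, −2.59 and −3.10 in non-CL-side summer samples. It had −2.93, −2.37 and −2.90 in CL-side autumn samples and −2.76, −3.07 and −3.01 in non-CL-side autumn samples. All 12 values lay between −3.10 and −2.15. The lowest CL-side summer sample, at −2.68, was above the highest non-CL-side autumn sample, at −2.76, and the other pairs of groups overlapped. The means were −2.38 ± 0.27 in CL-side summer samples, −2.69 ± 0.38 in non-CL-side summer samples, −2.73 ± 0.32 in CL-side autumn samples and −2.95 ± 0.17 in non-CL-side autumn samples (SD, n = 3 each).

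**Figure D1:**
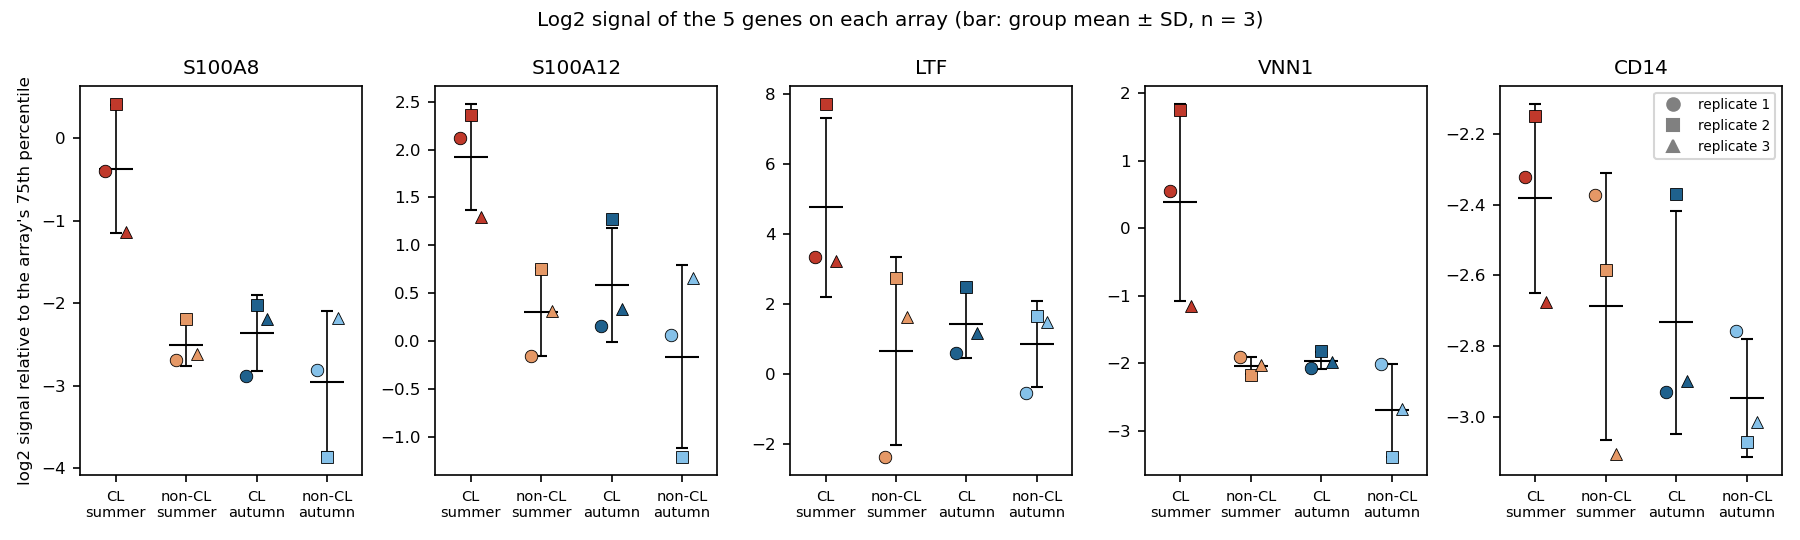
Log2 signal relative to the array's 75th percentile (vertical axes, scaled per gene) of the 5 genes in the 4 groups, with a symbol for each replicate and a bar for the group mean ± SD (n = 3). The 3 CL-side summer arrays are the highest for S100A8, S100A12, LTF and VNN1, while the CD14 values of all groups lie between −3.10 and −2.15.

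The first question was how summer differed from autumn in each horn. On the CL side, the summer minus autumn difference was 1.99 ± 0.47 for S100A8, a fold of 3.98, and 1.33 ± 0.49 for S100A12, a fold of 2.52 (log2 ± SE, n = 3 each). It was 3.35 ± 1.45 for LTF, a fold of 10.2, and 2.35 ± 0.59 for VNN1, a fold of 5.09. CD14 differed by 0.35 ± 0.23, a fold of 1.28. Each SE here and below, except where horns were averaged, comes from 1 fit of all 4 groups. It holds their shared spread and not only that of the samples compared. In 4 of the 5 genes every summer sample was above every autumn sample, as in 7.98% of all probes, a share that stands beside the count only, because this contrast chose the genes. Across all probes limma called 0 of 12375 at an adjusted p under 0.05 (0%), with 1228 probes at an unadjusted p under 0.05. In these biopsies, fewer cells of a type and less RNA per cell cannot be told apart.

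The array that stood apart mattered most for LTF. Without CL-side summer replicate 2 the LTF difference on the CL side was 1.87, against 3.35 with it. The differences of S100A8, S100A12 and VNN1 without it were 1.60, 1.12 and 1.66. On the first slide alone, which holds 3 summer and 1 autumn array of the CL side, S100A8 differed by 2.51, S100A12 by 1.76, LTF by 4.16, VNN1 by 2.46 and CD14 by 0.55. With the slide as a block, the same differences were 2.18, 1.44, 4.46, 2.07 and 0.35.

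On the non-CL side the season differences were smaller and within the spread of the replicates. Summer minus autumn was 0.45 ± 0.47 for S100A8, 0.47 ± 0.49 for S100A12 and 0.66 ± 0.59 for VNN1 (log2 ± SE, n = 3 each). It was −0.20 ± 1.45 for LTF and 0.26 ± 0.23 for CD14. The adjusted p was 1 for each of the 5 genes in limma, which called 0 of 12375 probes (0%), with 139 at an unadjusted p under 0.05. In 0 of the 5 genes was every summer sample above every autumn sample, against 2.62% of all probes. The sign for LTF was not stable, since the difference was 1.32 without non-CL-side summer replicate 1, 0.91 with the slide as a block and 1.21 on the first slide alone. The signs of S100A8 and S100A12 turned to −0.0095 and −0.057 without non-CL-side autumn replicate 2, and that of VNN1 to −0.022 on the first slide alone.

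The CL-side season difference minus the non-CL-side one was 1.54 ± 0.66 for S100A8, 0.87 ± 0.69 for S100A12 and 3.55 ± 2.05 for LTF (log2 ± SE). It was 1.69 ± 0.84 for VNN1 and 0.09 ± 0.33 for CD14. limma called 0 of 12375 probes (0%) for this difference, with 233 at an unadjusted p under 0.05. When the horns that share a number and a season were first averaged, summer minus autumn was 1.22 ± 0.32 for S100A8, 0.90 ± 0.24 for S100A12 and 1.5 ± 0.36 for VNN1 (n = 3 means each). It was 1.57 ± 1.19 for LTF and 0.31 ± 0.19 for CD14, and LTF was at 0.31 without summer replicate 2. The 3 summer means lay above the 3 autumn means for S100A8, S100A12 and VNN1, as they did for 5.46% of all probes. For these means limma called 0 of 12367 probes (0%), with 492 at an unadjusted p under 0.05. The averages and the difference of season differences both contain the CL-side season comparison that chose the genes. They are therefore descriptions, and the share stands beside the count only.

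The second question was how the horns differed within a season. In summer, where all 6 arrays shared 1 slide, the CL side minus the non-CL side was 2.13 ± 0.47 for S100A8, a fold of 4.38, and 1.62 ± 0.49 for S100A12, a fold of 3.08. It was 4.11 ± 1.45 for LTF, a fold of 17.3, 2.42 ± 0.59 for VNN1, a fold of 5.37, and 0.31 ± 0.23 for CD14, a fold of 1.24 (log2 ± SE, n = 3 each). This comparison uses the same CL-side summer arrays as the season comparison that chose the genes, so it is not independent of it. The adjusted p was 0.984 for all 5 genes, and limma called 0 of 12375 probes (0%), with 174 at an unadjusted p under 0.05. Every CL-side sample was above every non-CL-side sample in 4 of the 5 genes, against 1.88% of all probes. The LTF difference was 2.63 without CL-side summer replicate 2 and 2.59 without non-CL-side summer replicate 1.

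Taken by replicate number, the CL side was above the non-CL side in all 3 summer pairs for each of the 5 genes. It was so for 11.3% of all probes. That share stands beside the count only, because these pairs use the CL-side summer arrays of the comparison that chose the genes. The differences by number were 2.29, 2.61 and 1.49 for S100A8, and 2.28, 1.60 and 0.99 for S100A12. They were 5.74, 5.0 and 1.60 for LTF, 2.46, 3.93 and 0.88 for VNN1, and 0.05, 0.43 and 0.43 for CD14. Replicate 3 had the smallest difference for S100A8, S100A12, LTF and VNN1.

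In autumn the horns differed less. This comparison shares its CL-side autumn arrays with the season comparison that chose the genes, so it is not independent of it. The shares of all probes given below stand beside the counts only. The CL side minus the non-CL side was 0.59 ± 0.47 for S100A8, 0.76 ± 0.49 for S100A12 and 0.56 ± 1.45 for LTF (log2 ± SE, n = 3 each). It was 0.73 ± 0.59 for VNN1 and 0.21 ± 0.23 for CD14. The adjusted p was 1 for each of the 5 genes in limma, which called 0 of 12375 probes (0%), with 230 at an unadjusted p under 0.05. No gene of the 5 had every CL-side sample above every non-CL-side sample, against 2.35% of all probes, and none was higher on the CL side in all 3 numbered pairs, against 8.74%. The differences by number were −0.07, 1.85 and −0.01 for S100A8 and 0.10, 2.49 and −0.32 for S100A12. They were 1.16, 0.82 and −0.31 for LTF, −0.06, 1.57 and 0.69 for VNN1, and −0.17, 0.70 and 0.12 for CD14. The pair with number 2 gave the largest difference for S100A8, S100A12, VNN1 and CD14, and non-CL-side autumn replicate 2 was the lowest of all 12 arrays for S100A8, S100A12 and VNN1. On the first slide alone, which holds 1 autumn array of each horn, the horn difference was −0.074 for S100A8, 0.097 for S100A12, 1.16 for LTF, −0.061 for VNN1 and −0.17 for CD14.

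**Figure D2:**
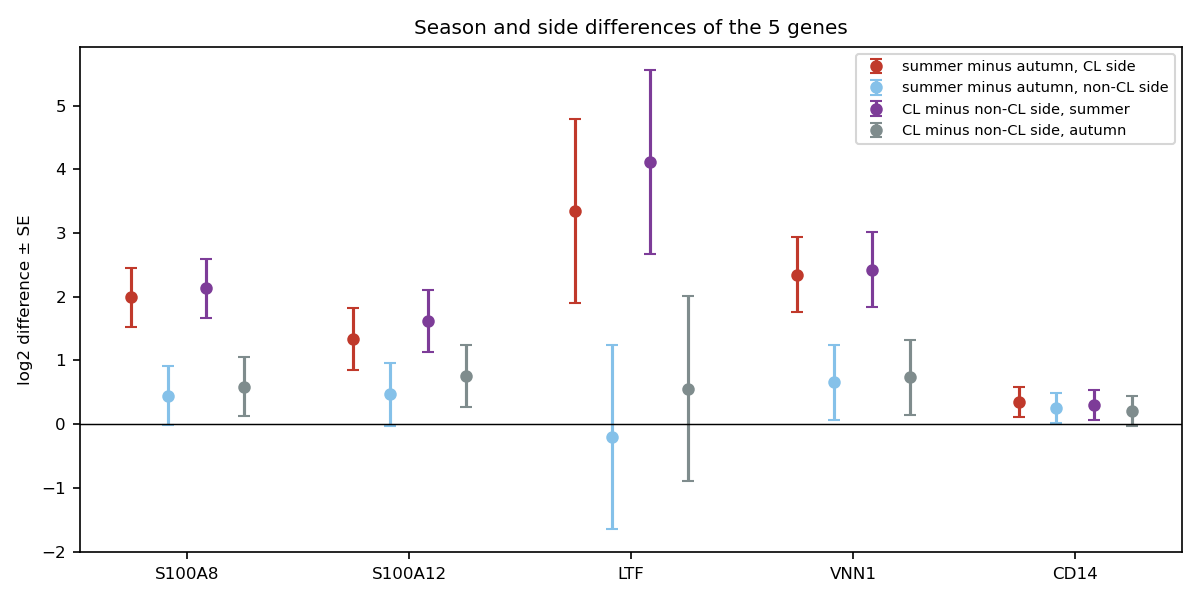
Log2 difference ± SE (vertical axis) of the 5 genes for 4 comparisons, each of 3 against 3 arrays: summer minus autumn on the CL side and on the non-CL side, and the CL side minus the non-CL side within summer and within autumn. The differences that involve the CL-side summer arrays are the larger ones for S100A8, S100A12, LTF and VNN1, the widest errors are those of LTF, and CD14 lies between 0.21 and 0.35 in all 4.

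The third question was whether the genes rose together on the same arrays. To take the group pattern out, the deviation of each array from the mean of its group was correlated between genes. This was done over 12 arrays and 10 pairs of genes. The permutations of the 12 arrays shuffle each group separately, though same-numbered horns deviated together and may be of 1 cow. Their p-values do not allow for that. All 10 Pearson correlations were above 0, from 0.02 to 0.91 with a median of 0.48. Without CL-side summer replicate 2, LTF had r of −0.26 with VNN1 and −0.28 with CD14, and the other pairs stayed above 0. Over the levels themselves the correlations were 0.41 to 0.96 with a median of 0.75, values that contain the group pattern by which the genes were chosen.

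S100A8 and S100A12 deviated together most closely, with r = 0.908 (exact two-sided permutation within groups, p = 0.0031, adjusted p = 0.031 over the 10 pairs) and Spearman's rho = 0.909 (exact permutation, p = 0.0031, adjusted p = 0.031). Without the 2 arrays farthest from the median of S100A8, r was 0.823, and without CL-side summer replicate 2 it was 0.935. Over the 6 means of same-numbered horns r was 0.987, with an exact permutation p of 0.0278, the smallest that 36 permutations can give, and an adjusted p of 0.278. Leaving out 1 array at a time kept r between 0.844 and 0.946, with an exact permutation adjusted p of 0.023 to 0.103 from fewer permutations. The adjusted p was above 0.05 without any 1 of the CL-side summer arrays, without non-CL-side summer replicate 1 and without any 1 of the non-CL-side autumn arrays. Non-CL-side autumn replicate 2 was lowest and CL-side summer replicate 2 highest in S100A8 deviation.

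VNN1 and CD14 also deviated together, with r = 0.575 (exact two-sided permutation within groups, p = 0.0093, adjusted p = 0.046). Spearman's rho was 0.657 (exact permutation, p = 0.024, adjusted p = 0.120), so the pair passed with r only. Without the 2 arrays farthest from the median of VNN1, r was 0.430. Over the 6 means of same-numbered horns r was 0.735 (exact permutation adjusted p = 0.741). Leaving out 1 array at a time gave r of 0.424 to 0.735, and the adjusted p stayed under 0.05 only without non-CL-side summer replicate 2 or 3. The other 8 pairs had adjusted p from 0.191 to 0.961. S100A8 and VNN1 had r = 0.738 and S100A12 and VNN1 r = 0.581.

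For LTF the correlations depended on single arrays. Its r was 0.479 with S100A8, 0.446 with S100A12, 0.327 with VNN1 and 0.015 with CD14. Without the 2 arrays farthest from the median of the other gene of each pair, LTF had r = 0.648 with S100A8 and 0.626 with S100A12. Leaving out 1 array at a time gave 0.211 to 0.762 with S100A8 and 0.347 to 0.778 with S100A12, and −0.262 to 0.492 with VNN1 and −0.280 to 0.481 with CD14, where the lowest values were those without CL-side summer replicate 2. Its own lowest array was non-CL-side summer replicate 1, at −2.39, where S100A8, S100A12, VNN1 and CD14 were −2.68, −0.16, −1.91 and −2.37. VNN1 and CD14 were the highest of their group there, and S100A8 and S100A12 the lowest of theirs.

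**Figure D3:**
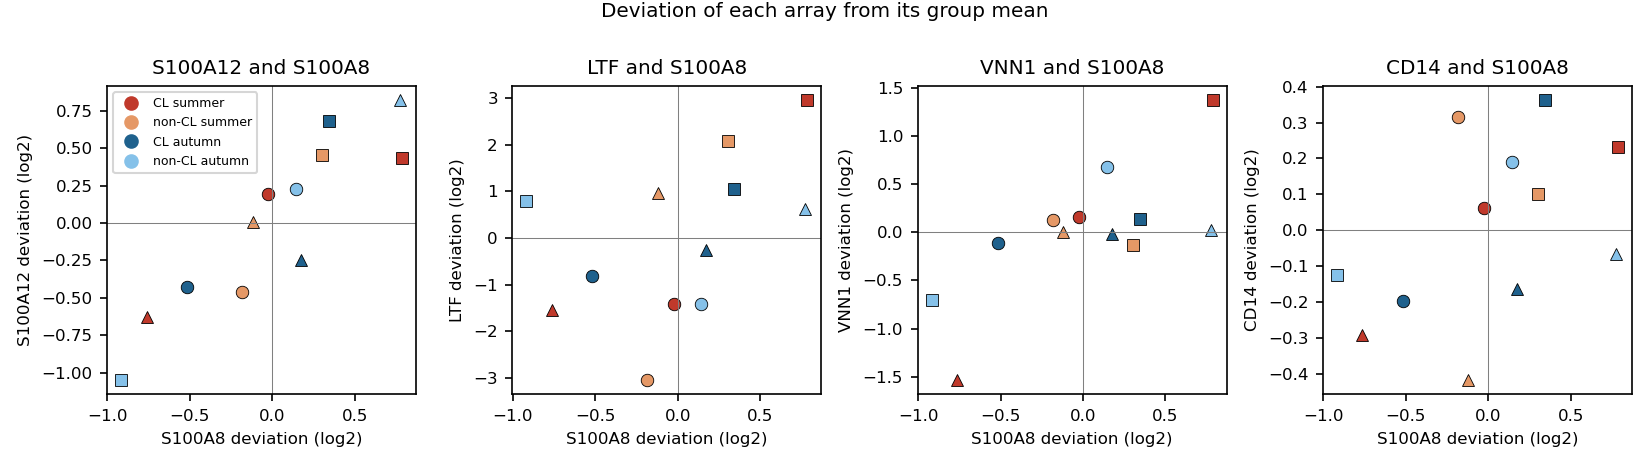
Deviation from the group mean (log2) of S100A12, LTF, VNN1 and CD14 (vertical axes) against that of S100A8 (horizontal axes) on each of the 12 arrays, with colours for groups, and circles, squares and triangles for replicates 1, 2 and 3. The points of S100A12 lie close to a line (r = 0.908), and those of LTF are scattered (r = 0.479).

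The genes most like the 5 were found by correlating each of 5030 other genes with the mean standardised level of the 5 over the 12 arrays. These correlations contain the group pattern and are descriptions with no test. PCK2, a mitochondrial enzyme of gluconeogenesis, had r = 0.934. CXCL5, whose probe the files describe as chemokine ligand 6 (granulocyte chemotactic protein 2), had r = 0.923. PIGR, which carries polymeric immunoglobulins across epithelium, had r = 0.919, and SLC6A14, an amino acid transporter, had r = 0.915. RAC2, a GTPase of blood cells that takes part in the neutrophil oxidase, had r = 0.904, and CORO1A, an actin-binding protein of leukocytes, had r = 0.901. MAPKAPK3, a kinase downstream of p38, had r = 0.896, and SERPINB1, an inhibitor of neutrophil elastase, had r = 0.893. SLC4A4, a sodium bicarbonate cotransporter, had r = 0.886, and EFHD2, a calcium-binding protein, had r = 0.877. Without CL-side summer replicate 2 the correlations of these 10 genes were 0.737 to 0.866.

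The genes around the 5 were read from lists by role, chosen with earlier results of these data known. All list values below leave out the 5 genes, and no list gene passed the test in any comparison (0 of 12375 probes called). Of all probes, 53.0% had a higher mean in summer than in autumn on the CL side. In summer, 48.9% of all probes had a higher mean on the CL side than on the non-CL side. These shares stand beside the list counts below. Of 15 tested neutrophil granule proteins and markers, 10 had a higher mean in summer than in autumn on the CL side, with a median difference of 0.05, against a median of 0.02 over all probes. Without CL-side summer replicate 2, the array that stood apart, 9 of the 15 did, with a median difference of 0.06. In summer, 13 of the 15 had a higher mean on the CL side than on the non-CL side, with a median difference of 0.29, against −0.01 over all probes. Without that array 12 of the 15 did, with a median difference of 0.17. The oxidase subunit CYBB differed by −0.21 between summer and autumn on the CL side, and the integrin subunit ITGB2 by 0.05. The chemokine receptor CXCR1 differed by 2.10 ± 0.90 (SE) but was well above background on 8 arrays only. ITGAM, MPO and CATHL1 of the same list were well above background on 1 array each and BPI on 6, and none of these 4 was tested. S100A9, CXCR2, CSF3R and LCN2 had no probe under those symbols.

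The list of neutrophil attractants, 5 chemokines and the leukotriene B4 receptor LTB4R, had its highest means on the CL-side summer arrays too. All 6 genes tested had a higher mean in summer than in autumn on the CL side (53.0% of all probes), with a median difference of 1.84. All 6 also had a higher mean on the CL side than on the non-CL side in summer (48.9% of all probes). The median difference there was 1.18. Their mean difference from the 12-array mean was 0.77 to 2.45 on CL-side summer arrays and −0.88 to 0.50 on non-CL-side summer arrays. It was −0.73 to −0.03 on CL-side autumn arrays and −1.47 to −0.45 on non-CL-side autumn arrays, so the CL-side summer arrays lay above the other 9. The highest was CL-side summer replicate 2 and the lowest was non-CL-side autumn replicate 2, the arrays at which S100A8 was highest and lowest. CXCL2 differed by 3.58 ± 1.05 between summer and autumn on the CL side, CXCL5 by 2.21 ± 0.90, CXCL8 by 1.80 ± 0.83 and LTB4R by 0.06 (log2 ± SE, n = 3 each). Without CL-side summer replicate 2 these differences were 2.14, 1.09, 2.39 and −0.093. The median of the list was then 1.15 with 5 of 6 genes higher in summer, and 0.82 with 4 of 6 higher on the CL side in summer.

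CD14 works with the genes of lipopolysaccharide recognition. Of 23 tested genes of lipopolysaccharide recognition and TLR4 signalling, 14 had a higher mean in summer than in autumn on the CL side, with a median difference of 0.35, against 0.02 over all probes. The differences ran from −1.0 ± 0.84 for the cytokine IL1A to 1.94 ± 1.05 for the acute phase protein SAA3 (log2 ± SE). Without CL-side summer replicate 2, 17 of the 23 were higher in summer, the median was 0.17, and IL1A and SAA3 differed by −0.16 and 0.46. TLR4, the signalling receptor, differed by 0.46 ± 0.24, LY96, which binds lipopolysaccharide with TLR4, by 0.08 ± 0.18, and the inhibitor NFKBIA by −0.13 ± 0.22 (log2 ± SE). Without that array they differed by 0.25, 0.13 and 0.12. Among their products, the cytokine IL1B differed by 1.01 ± 0.57. LBP, which brings lipopolysaccharide to CD14, was well above background on 3 arrays and was not tested.

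Of 10 other tested genes of the S100 family list, which also holds AGER, 3 had a higher mean in summer than in autumn on the CL side, with a median difference of −0.08 (2 of 10 and −0.22 without CL-side summer replicate 2). AGER, the receptor of S100A12, differed by −0.59 ± 0.46 (log2 ± SE). In coenzyme A synthesis, 3 genes beside VNN1 were tested. PPCDC differed by 0.25, PANK3 by −0.22 and the vitamin transporter SLC5A6 by 0.83 (−0.17, −0.027 and 0.53 without that array), and VNN2 and COASY had no probe under those symbols. Beside LTF, 10 of 13 tested antimicrobial and iron-binding proteins had a higher mean in summer than in autumn on the CL side, with a median difference of 0.29 (8 of 13 and 0.15 without that array). The other iron carrier TF differed by 0.03 ± 0.44, while PIGR differed by 4.38 ± 0.89 and the beta-defensins LAP and TAP by 5.56 ± 1.05 and 4.60 ± 1.31 (log2 ± SE, n = 3 each). The beta-defensin EBD went the other way, by −0.18 ± 1.14 (log2 ± SE). Without that array TF, PIGR, LAP, TAP and EBD differed by 0.15, 3.39, 5.53, 4.26 and −1.54.

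Mean levels of other cells' markers also differed between these groups. Of 13 tested monocyte, macrophage and dendritic cell genes other than CD14, 2 had a higher mean in summer than in autumn on the CL side, with a median difference of −0.51. Their mean difference from the 12-array mean was −1.24 to 0.35 on CL-side summer arrays and −0.13 to 0.78 on CL-side autumn arrays, and the lowest of all was CL-side summer replicate 2. Without it the direction turned: 7 of the 13 had a higher mean in summer, with a median difference of 0.04, and the list means were 0.31 in summer and 0.24 in autumn. CD68 and AIF1, markers of macrophages, differed by −0.36 ± 0.50 and −0.49 ± 0.40 (log2 ± SE), and by 0.31 and −0.028 without that array, and CD163 and CSF1R had no probe under those symbols. Of 18 epithelial genes, 15 had a higher mean in summer than in autumn on the CL side, with a median difference of 0.66, and their mean was −0.11 to 1.09 on CL-side summer arrays and −0.30 to −0.23 on CL-side autumn arrays. Of 12 stromal genes, 1 had a higher mean in summer than in autumn there, with a median difference of −1.05, and their mean was −1.10 to 0.17 on CL-side summer arrays and 0.20 to 0.75 on CL-side autumn arrays. Of 6 genes of the squamous epithelium of cervix and vagina, 5 had a higher mean in summer, with a median difference of 0.71, and their mean was 0.10 to 1.67 on CL-side summer arrays and −0.75 to −0.37 on CL-side autumn arrays. Without CL-side summer replicate 2, the medians of the epithelial, stromal and squamous lists were 0.46, −0.67 and 0.69, with 14 of 18, 0 of 12 and 4 of 6 genes higher in summer. Among 5 tested genes of erythrocytes and platelets, 4 had a higher mean there in summer, and the list had a median difference of 0.26 (0.08 without that array). The haemoglobin genes HBB and HBA were well above background on 1 and 0 arrays. The haemoglobin gene HBG was well above background on all 12 arrays. On the CL side it differed by 1.36 ± 0.49 between summer and autumn (log2 ± SE). Every summer sample was above every autumn sample there, as in 7.98% of all probes, with the nearest samples at −4.69 and −4.79. On the non-CL side HBG differed by −0.27 ± 0.49 between the seasons. Between the horns in summer it differed by 1.07 ± 0.49, and the samples of the horns overlapped. Its CL-side season difference was 0.87 without that array. The part of these cell types in the levels of the 5 genes was not tested.

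**Figure D4:**
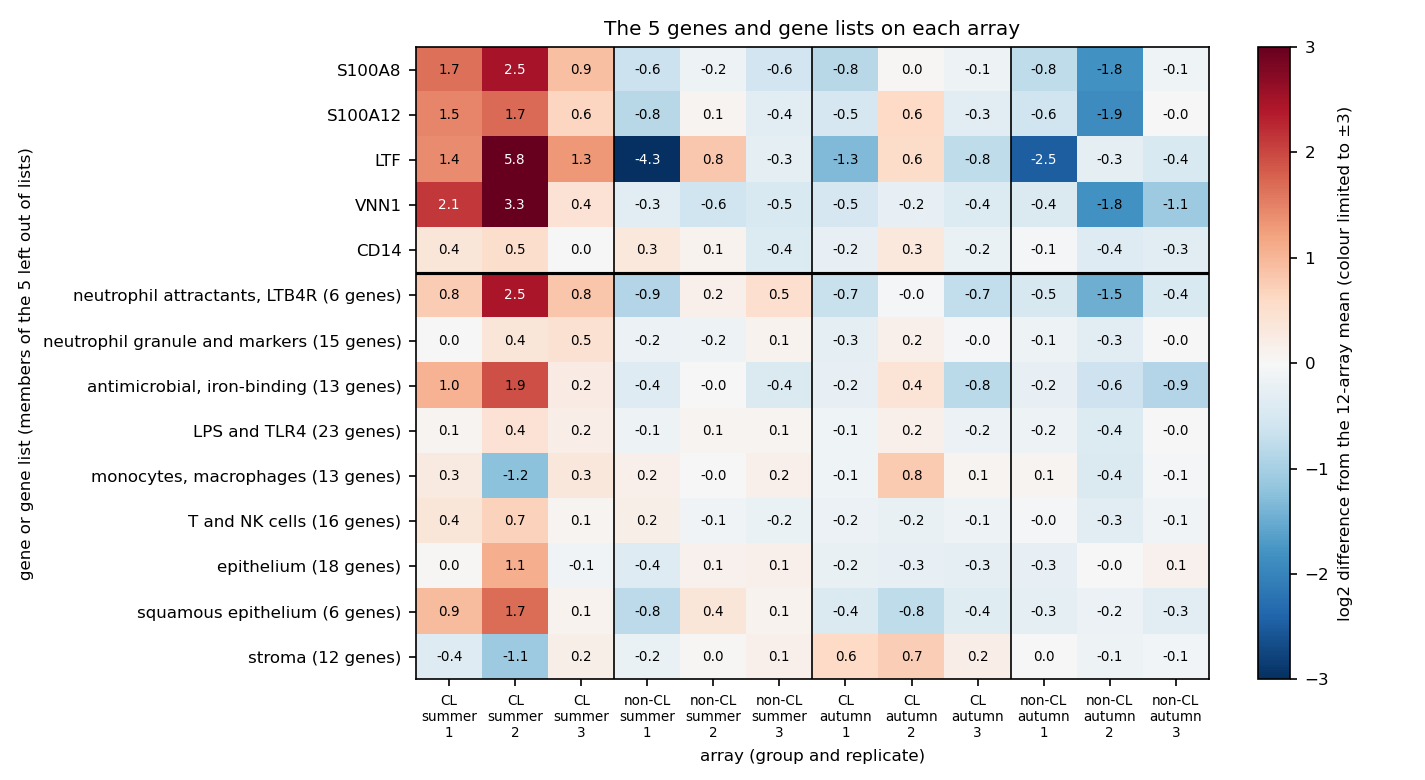
Log2 difference from the 12-array mean of the 5 genes and the mean of 9 gene lists without them (rows) on each of the 12 arrays (columns, by group and replicate), with the colour limited to ±3. The neutrophil attractant list is at 0.77 to 2.45 on the CL-side summer arrays, above the other 9 arrays, and CL-side summer replicate 2 has the lowest stroma mean, at −1.10.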

How the data were processed

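RNA of 12 endometrial biopsies was measured on 1-colour Agilent arrays. Each labelling used 400 ng of total RNA and the dye Cy3, per the labels' protocols. The deposited processed signals are linear spot intensities that, per the file headers, came from Feature Extraction 9.5.1.1 (9.5 in the submitters' processing notes), background-subtracted and not scaled between arrays. The authors' deposited table of log2 values has unstated scale and centring, its column medians were −2.79 to −2.61, it correlated with the scanner values at 0.970 to 0.995, and it served as an alternative. The array's genome build was not given in the sources used.

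Control spots were left out and 466 outlier-flagged values set to missing. Signals were divided by the 75th percentile of each array, floored at −7.28 (added after seeing signals at or below 0) and put on the log2 scale. The 12404 of 15208 probes that were well above background throughout at least 1 group were kept. Tests used limma 3.58.1 (R 4.3.3) with 4 group means in 1 fit and Benjamini-Hochberg adjustment over all kept probes that could be fitted, and calls needed an adjusted p under 0.05. The fit was tested on simulated data. Correlations of deviations were tested over 1296 exact permutations within groups. The number of arrays limits the precision.

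The genes and lists were chosen with earlier results of these data known. Named genes were the 5 genes, a list of genes of their roles and of cell type markers, and the 10 genes most like their mean. Examples from the lists outside that rule (CYBB, ITGB2, LTB4R, IL1A, SAA3, EBD, HBG, PPCDC, PANK3 and SLC5A6) were chosen after their values were seen, and list values without CL-side summer replicate 2 were added then. Groups and numbers came from the sample titles. Same-numbered samples deviated together, with correlations of 0.270 to 0.500 between horns in summer, 0.137 to 0.376 between horns in autumn and 0.108 to 0.345 between seasons within a horn (12272 probes), so a replicate block was run. The labels do not say what a number stands for. Other alternatives were normexp, quantile normalization, the floor, the filter on dim probes, the slide and leaving out each array.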

Additional observations from a re-analysis of the deposited data

How the results depend on the processing

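With 3 arrays a group, values within the spread of replicates were not resolved. The CL-side season differences and the summer horn differences of all 5 genes kept their sign under every alternative run, and none of the 5 genes passed an adjusted p of 0.05 under any of them. The CL-side season comparison chose the genes, the summer horn comparison shares its CL-side summer arrays, and the alternatives reuse the same data. The kept sign is therefore a description. Under the replicate block, as under the fit without it, 0 probes were called in all 6 comparisons, so pairing changed no call. The season comparison on the non-CL side had 1 call on the first slide alone, against 0. On that slide the autumn horn difference turned to −0.074 for S100A8, −0.061 for VNN1 and −0.17 for CD14, and the non-CL-side season difference to −0.022 for VNN1 and 1.21 for LTF (0.91 for LTF with the slide as a block). Pairs of genes that passed fell to 1 with Spearman's rho, with normexp and with the authors' values, and to 0 with the replicate block, against 2, and LTF with CD14 had r = −0.11 after quantile normalization. Leaving out 1 array at a time gave 0 to 7 called probes for season on the CL side (7 without CL-side autumn replicate 3), 0 to 1 for side in summer, 0 to 6 for side in autumn (6 without CL-side autumn replicate 3), 0 to 1 for the difference of season changes and 0 to 2 for season over both sides. It gave 0 to 2 passing pairs of genes. The non-CL-side season difference ran from −0.0095 to 0.84 for S100A8, −0.057 to 0.88 for S100A12 and −1.24 to 1.32 for LTF. The autumn horn difference of LTF ran from −0.15 to 0.97, the difference of season changes of CD14 from −0.12 to 0.27, and r of LTF from −0.26 to 0.49 with VNN1 and from −0.28 to 0.48 with CD14. The causes were not tested.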

Other observations

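Lymphocyte genes had higher means on the CL-side summer arrays, with no call. Of all probes, 53.0% had a higher mean in summer than in autumn on the CL side. In summer, 48.9% of all probes had a higher mean on the CL side than on the non-CL side. Of 16 tested T and NK cell genes, 15 had a higher mean in summer than in autumn on the CL side, with a median difference of 0.55, against 0.02 over all probes (13 of 16 and 0.45 when the array that stood apart, CL-side summer replicate 2, was left out). In summer, 14 of the 16 had a higher mean on the CL side than on the non-CL side, with a median difference of 0.56 (15 of 16 and 0.26 without that array). Their mean difference from the 12-array mean was 0.08 to 0.70 on CL-side summer arrays, −0.21 to 0.17 on non-CL-side summer arrays, −0.23 to −0.14 on CL-side autumn arrays and −0.31 to −0.04 on non-CL-side autumn arrays. CD3E, a subunit of the T cell receptor complex, differed by 0.66 ± 0.34 between summer and autumn on the CL side (log2 ± SE, n = 3 each). All 5 tested B and plasma cell genes had a higher mean in summer than in autumn on the CL side. The median difference was 0.53, and without that array 3 of 5 were higher with a median of 0.25. The mean of this list was −0.01 to 0.80 on CL-side summer arrays and −0.25 to 0.03 on non-CL-side summer arrays. It was −0.29 to 0.06 on CL-side autumn arrays and −0.32 to 0.15 on non-CL-side autumn arrays, so the groups overlapped. The B cell marker MS4A1 was well above background on 8 arrays. limma called no gene of either list at an adjusted p under 0.05 (0 of 12375 probes, with 1228 at an unadjusted p under 0.05 for season on the CL side).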
